A study of Mus musculus with 8 samples.

Results

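The protein-coding genes named Eif or Eef, the translation initiation and elongation factors, were followed in sorted mouse mammary tumor cells. Genes entered the group when the symbol began with Eif or Eef and the gene had 10 or more counts in at least 2 libraries, and the eIF2 kinases Eif2ak1 to Eif2ak4 were left out. Of 65 protein-coding genes with such a symbol, 62 met the count minimum, out of 53697 genes in the deposited table and 15647 protein-coding genes that met the same minimum. The other 3 genes were Eef1a2, Eif2s3y and Eif4e1b, which had between 0 and 3 counts in every library. That is at or under the floor of 3 counts, so their expression was not detected here. Of these, Eif2s3y is a gene of the Y chromosome. The member nearest to the minimum by mean CPM was Eif5a2, with 53 to 405 counts. The 62 members passed the filter on low counts and were tested among 18322 genes.

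Protein synthesis starts when eIF2, bound to GTP and the initiator tRNA, joins the small ribosomal subunit together with eIF3, eIF1, eIF1A and eIF5, and when eIF4E, eIF4G and eIF4A bring the capped mRNA to it. The exchange factor eIF2B reloads eIF2 with GTP, and the 4E-binding proteins hold eIF4E away from eIF4G until mTORC1 phosphorylates them. In elongation, eEF1A delivers aminoacyl-tRNA, the eEF1B subunits recharge eEF1A, and eEF2 moves the ribosome along the mRNA. In tumor cells these factors are known as readouts and mediators of growth signals from mTORC1, MAPK and Myc.

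The cells came from spontaneous mammary tumors of C57BL/6 mice in which the MMTV promoter drives the polyoma middle T oncogene (PyMT), so every library, Dll1- ones included, carries that oncogene. Mice 1 and 2 were PyMT-Dll1GFP, with a GFP-IRES-Cre-ERT2 cassette knocked into the Notch ligand gene Dll1, and mice 3 and 4 were PyMT-Dll1mCh, with a BAC-based mCherry reporter; the ages of the mice are not given in the sources used here. Cells negative for CD45, CD31 and Ter119 were sorted by the reporter, which gave 1 Dll1- and 1 Dll1+ library from each mouse, 8 libraries and 4 pairs in all. The comparison within a mouse asks how the factors differ between the Dll1+ and Dll1- tumor cells of the same animal, and the comparison between reporters asks whether the levels and the Dll1+ effect differ between the lines. Reporter allele, mouse line and any batch that the mice of a line share cannot be told apart.

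Library totals ran from 27301396 to 123907626 estimated counts. Dll1, the gene used for the sort, rose in Dll1+ cells (log2 fold change 2.90 with an SE of 0.24 and adjusted p = 0.007). The 4 epithelial markers summed to 4466 to 5608 CPM (counts per 1000000 counts, after TMM scaling) in Dll1- and 5386 to 7597 CPM in Dll1+ libraries. The 8 fibroblast and pericyte markers, none of them at 0 in any library, summed to 1094 and 1236 CPM in the Dll1- and 1005 and 1152 CPM in the Dll1+ cells of mice 1 and 2, but to 7825 and 21880 CPM in the Dll1- and 3046 and 3297 CPM in the Dll1+ cells of mice 3 and 4. The 8 immune markers summed to 64.5 to 374 CPM, the 6 erythroid markers to 6.03 to 180.5 CPM, the 6 endothelial markers to 37.1 to 288 CPM and the 4 basal epithelial markers to 84.9 to 1257 CPM over the 8 libraries. The basal sum was higher in the Dll1+ than in the Dll1- library of each mouse, and 3 of the 4 basal markers were higher in all 4 mice. The part of these cells in the values that follow was not tested, and in such bulk libraries fewer cells of a type and less RNA per cell cannot be told apart.

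Transcripts for translation factors took a smaller share of the Dll1+ than of the Dll1- library in each of the 4 mice. The 62 members held 2.26%, 2.29%, 2.74% and 2.51% of all counts in the Dll1- libraries of mice 1 to 4 and 1.81%, 1.87%, 2.31% and 2.44% in the Dll1+ libraries. After TMM scaling, the members summed to 21808, 21689, 27147 and 25821 CPM in Dll1- cells and to 17755, 18907, 23571 and 25933 CPM in Dll1+ cells, so that the sum was lower in mice 1, 2 and 3 and not in mouse 4. Eef1a1 alone made up 32.1% to 36.7% of the member counts and Eef2 14.8% to 16.2%, and without these 2 genes the sums were 11138, 10870, 13282 and 12256 CPM in Dll1- and 9441, 9591, 11340 and 12461 CPM in Dll1+ cells. The drop in mice 1, 2 and 3 and its absence in mouse 4 held with and without them. Values by library are listed below for mice 1, 2, 3 and 4 in that order.

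Over the 4 mice, 12 members fell and 1 rose in Dll1+ cells at an adjusted p under 0.05. The test was edgeR's quasi-likelihood test with the mouse as a block and Benjamini-Hochberg adjustment over all genes tested. It is the source of each adjusted p below, except that the fit between the reporter lines had no term for the mouse. Of all genes tested, 7.04% fell and 6.98% rose, and among genes averaging 10 CPM or more 9.12% fell. The counts by role and by list given below for the 4 mice are to be read beside these shares. The members that fell were Eif4g1, Eif2b4, Eif5a, Eif2b5, Eif3b, Eif2b3, Eif4a3, Eif4ebp1, Eif4e2, Eif3g, Eif3l and Eef1akmt4, and the 1 that rose was Eif1. The log2 fold change was negative for 53 of the 62 members, beside 9184 of the 18322 genes tested. Its median was -0.18 for the members, with a range of -0.45 to 0.60, against a median of -0.00 for all genes tested. An unadjusted p under 0.05 was found for 32 of the 62 members, beside 5936 of the 18322 genes tested.

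**Figure D1:**
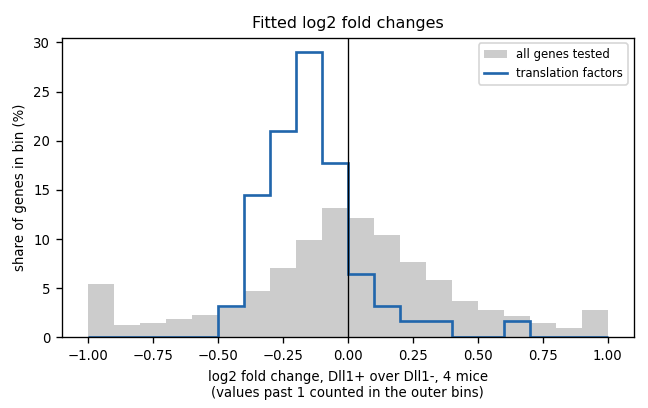
Fitted log2 fold change of Dll1+ over Dll1- cells over 4 mice (x axis, bins of 0.1) against the share of genes in each bin (y axis, percent), for the 62 translation factors (blue line) and all 18322 genes tested (grey). The members lie mostly between -0.4 and 0, with 29.0% of them between -0.2 and -0.1, while the grey shares are spread around 0.

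Without mouse 1, 2 or 3 the fit called 0 members, with 433, 779 and 405 of all genes called. Without mouse 4 it called 19 members, all of them lower, with 2401 of 18374 genes called, 1366 of those lower. With Dll1 status alone and no term for the mouse it called 0 members and 0 genes, and with the reporter in place of the mouse it called 6 of the 13, which were Eif4g1, Eif5a, Eif3b, Eif3g, Eif4e2 and Eif2b5. The directions of the 13 did not turn in any of the 11 alternatives. The call was kept in 4 of the 11 for Eif1 and Eef1akmt4 and in 5 for Eif2b3, Eif3l and Eif4a3. It was kept in 6 for Eif2b4 and Eif4ebp1 and in 7 for Eif2b5, Eif3b, Eif3g, Eif4e2, Eif4g1 and Eif5a.

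By mouse, 54, 53, 55 and 33 of the 62 members were below their Dll1- value in the Dll1+ library of mice 1 to 4. Of all genes tested, 52.4%, 49.1%, 49.7% and 45.0% were lower in the same order. The median log2 difference of the members was -0.27, -0.21, -0.22 and -0.03, beside -0.02, 0.01, 0.00 and 0.04 for all genes tested. The members of mouse 4 thus lay close to the level of all genes, and those of the other 3 mice lay below it. All 4 mice showed a lower value in Dll1+ cells for 29 members, beside 19.9% of all genes tested, and a higher value for 3 members, Eif1, Eif5 and Eif4ebp3, beside 21.4%. Eif5 was named after its values were seen.

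The 16 proliferation genes followed beside the members, among them Rrm2, Mcm6 and Ccnb1, fell in all 4 mice, 16 of 16 past the threshold. Summed, they had 967, 1001, 1618 and 1285 CPM in the Dll1- and 447, 460, 753.5 and 795 CPM in the Dll1+ libraries of mice 1 to 4. Mouse 4, whose translation factors differed least, also had the smallest drop of the 4 mice in this sum, from 1285 to 795 CPM. Its Dll1- library held the most fibroblast and pericyte RNA of all 8. Their part in the result of that mouse was not tested.

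**Figure D2:**
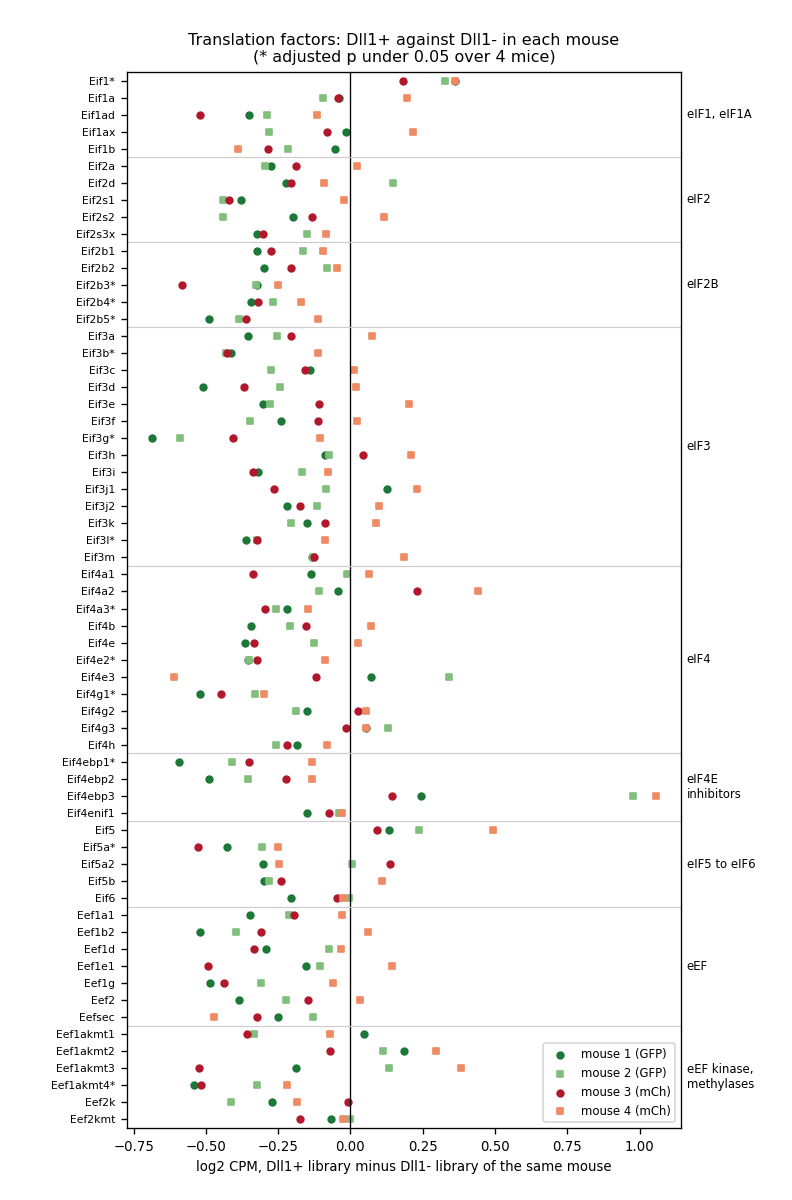
Difference in log2 CPM between the Dll1+ and the Dll1- library of a mouse (x axis) for each of the 62 members (rows, grouped by role); each point is 1 mouse, green for the PyMT-Dll1GFP mice 1 and 2 and red for the PyMT-Dll1mCh mice 3 and 4, and a star marks an adjusted p under 0.05. Most points of mice 1, 2 and 3 lie left of 0, and those of mouse 4 lie on both sides.

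The start of a transcript can mark it for mTORC1-dependent translation when it opens with a C followed by a run of pyrimidines. RefSeq starts (GRCm38.p6) were at hand for 47 of the 62 members, and a C within 3 bases of the start that opens a run of at least 5 C or T was found in 8 of the 47 genes (17.0%), beside 13.5% of all 27025 genes with such starts. These 8 were Eef1a1, Eif1ad, Eif2b5, Eif2s3x, Eif3b, Eif3f, Eif3l and Eif4g1. The windows of 10 bases before to 20 bases from the start are shown for 6 of them, with the run in capitals from that C on (pyrimidines before it, where present, stay in lower case), because 4 of the 8 fell in Dll1+ cells and the others include the most abundant member.
Eif4g1, chr16:20672717-20672746, plus strand: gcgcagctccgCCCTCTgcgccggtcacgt
Eif3b, chr5:140419295-140419324, plus strand: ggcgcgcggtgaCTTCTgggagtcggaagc
Eif3l, chr15:79075213-79075242, plus strand: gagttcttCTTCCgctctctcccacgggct
Eif2b5, chr16:20498807-20498836, plus strand: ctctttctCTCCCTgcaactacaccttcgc
Eef1a1, chr9:78481705-78481734, minus strand: ctccgccCTCTTCCCgagggtgggggagaa
Eif3f, chr7:108934405-108934434, plus strand: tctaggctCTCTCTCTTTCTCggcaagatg

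The median log2 fold change in Dll1+ cells was -0.30 for the 8 members with such a start and -0.18 for the other 39, of which 6 fell and 1 rose. A match of letters is a description of the annotated start and does not show where transcription began in these cells. The starts shown for Eif4g1 and Eef1a1 lie well inside the genes, which span chr16:20668313-20692884 and chr9:78478449-78489151.

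The E-box CACGTG, the letters that Myc and related factors bind and the same on both strands, stood between 250 bases before and 50 bases after the start in 13 of the 47 member genes (27.7%). The share was 8.09% of all 27025 genes with a promoter and 11.1% of the 12081 genes of the table that were both tested and matched. Among the members that fell, Eif4g1, Eif5a and Eef1akmt4 held it, and 60 bases around it are shown for these with the E-box in capitals.
Eif4g1, chr16:20672646-20672705, plus strand: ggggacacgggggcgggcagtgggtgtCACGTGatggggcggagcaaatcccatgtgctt
Eif5a, chr11:69920776-69920835, minus strand: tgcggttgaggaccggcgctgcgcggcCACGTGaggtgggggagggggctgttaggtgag
Eef1akmt4, chr16:20611482-20611541, plus strand: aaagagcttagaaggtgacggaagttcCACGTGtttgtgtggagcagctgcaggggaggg

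Counted from the start, the first base of the E-box lay at -54 in Eif4g1, -178 in Eif5a and -92 in Eef1akmt4. The start used for Eif4g1 lies inside the gene. Eif5a has 6 annotated starts, and its window and distance refer to 1 of them, which also lies inside its gene. Which of them these cells used was not tested. Members with the E-box did not stand apart from the others in their Dll1+ values, since 3 of 13 fell, with a median log2 fold change of -0.19, and of the 34 without it 7 fell and 1 rose, with a median of -0.18. The letters alone say nothing about which factor bound there.

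Among the start codon factors, which keep the scanning ribosome from starting at a wrong codon, 1 of 5 members rose, 0 fell and the median log2 fold change was -0.04. Eif1, the factor that guards start codon selection (chr11:100319885-100322096), had 364, 399, 451 and 556 CPM in the Dll1- libraries and 467, 500.5, 512 and 714 CPM in the Dll1+ libraries. It was higher in Dll1+ cells of each mouse, by 0.36, 0.33, 0.18 and 0.36 on the log2 scale, although the 2 groups overlapped (log2 fold change 0.31 with an SE of 0.069 and adjusted p = 0.039). Eif1 was the only called member with a rise, and its call was kept in 4 of the 11 alternatives. Among the settings that lost it was the scaling by library totals alone, where its log2 fold change was 0.25. Of the transcript of Eif1, 37.1% of the 31-base stretches also occur in other genes.

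Eif1b, a close relative of Eif1, went the other way in value, with 12.5, 12.8, 22.5 and 22.9 CPM in the Dll1- libraries and 12.0, 11.05, 18.4 and 17.5 CPM in the Dll1+ libraries. It was lower in Dll1+ cells in 4 of 4 mice and did not pass the threshold (log2 fold change -0.24 with an SE of 0.084 and adjusted p = 0.11). Eif1a and Eif1ax, both forms of eIF1A, had log2 fold changes of 0.00 and -0.04, and Eif1ad, an eIF1A domain protein, had -0.32 with an adjusted p of 0.054; these 3 were named after their values were seen.

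The subunits of eIF2 and the alternative carriers of initiator tRNA did not pass the threshold, with 0 of 5 members called, 5 of 5 negative and a median of -0.18. Eif2s3x, the X-linked gene for the GTP-binding gamma subunit, had 251, 252, 271 and 259 CPM in the Dll1- libraries and 201, 228, 219.9 and 244 CPM in the Dll1+ libraries. Within each mouse the Dll1+ library was the lower one (log2 fold change -0.22 with an SE of 0.068 and adjusted p = 0.087). The beta subunit gene Eif2s2 had 109, 119, 175 and 149.6 CPM in Dll1- cells and 94.9, 87.7, 159.5 and 162 CPM in Dll1+ cells, lower in Dll1+ cells of mice 1, 2 and 3 and higher in mouse 4. The lowest p in this role was that of Eif2s1, the alpha subunit that the stress kinases phosphorylate, with 75.8, 74.7, 108 and 98.9 CPM in Dll1- cells and 58.3, 55.1, 80.9 and 97.4 CPM in Dll1+ cells (log2 fold change -0.32 with an SE of 0.084 and adjusted p = 0.058); it was named after its value was seen.

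The exchange factor eIF2B, which sets how fast eIF2 is recycled, was the role with the highest share of called members. Of its 5 subunit genes 3 fell, and 5 of 5 were lower in Dll1+ cells in 4 of 4 mice, with a median log2 fold change of -0.28. Eif2b5, the catalytic epsilon subunit (chr16:20498817-20509323), had 70.4, 67.7, 105 and 85.4 CPM in the Dll1- libraries and 50.1, 51.8, 81.6 and 79.0 CPM in the Dll1+ libraries. Within each reporter its Dll1+ libraries lay below its Dll1- libraries (log2 fold change -0.34 with an SE of 0.073 and adjusted p = 0.036).

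Eif2b4, the delta subunit, had 49.2, 50.7, 73.4 and 57.0 CPM in Dll1- cells and 38.7, 42.2, 58.8 and 50.6 CPM in Dll1+ cells. Its Dll1+ library was the lower one in each mouse, and the values of mice 3 and 4 overlapped across the sort (log2 fold change -0.28 with an SE of 0.056 and adjusted p = 0.031). Eif2b3, the gamma subunit that pairs with epsilon in catalysis, had 15.3, 16.6, 23.3 and 23.0 CPM in Dll1- cells and 12.2, 13.2, 15.6 and 19.3 CPM in Dll1+ cells, and its log2 differences were -0.32, -0.33, -0.58 and -0.25 (log2 fold change -0.37 with an SE of 0.084 and adjusted p = 0.039). The remaining alpha and beta subunits, Eif2b1 and Eif2b2, did not pass, at -0.21 (adjusted p = 0.070) and -0.16 (adjusted p = 0.15) on the log2 scale. Both were named after their values were seen. None of the 31-base stretches of Eif2b3, Eif2b4 or Eif2b5 occurs in another gene of the annotation.

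Of the 14 subunit genes of eIF3, the scaffold that holds the initiation complex on the small subunit, 3 fell and 0 rose, with a median of -0.15. Eif3g, an RNA-binding subunit (chr9:20894349-20898623), showed the most negative fitted value of all 62 members. It had 109.9, 111, 185 and 148 CPM in the Dll1- libraries and 68.3, 73.9, 139.5 and 138 CPM in the Dll1+ libraries. The Dll1+ libraries of each reporter lay below its Dll1- libraries, with log2 differences of -0.69, -0.59, -0.41 and -0.10 (log2 fold change -0.45 with an SE of 0.10 and adjusted p = 0.042).

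Eif3b, a core subunit with an RNA recognition motif (chr5:140419328-140443360), had 237, 237, 327 and 298 CPM in Dll1- cells and 178, 176, 243 and 276 CPM in Dll1+ cells. The Dll1+ minus Dll1- difference was -0.41, -0.43 and -0.43 on the log2 scale in mice 1, 2 and 3 and -0.11 in mouse 4 (log2 fold change -0.35 with an SE of 0.077 and adjusted p = 0.039). Eif3l, a subunit at the outer edge of the complex, had 183, 176, 258 and 205 CPM in Dll1- cells and 142, 141, 207 and 193 CPM in Dll1+ cells, with log2 differences of -0.36, -0.32, -0.32 and -0.09 (log2 fold change -0.27 with an SE of 0.068 and adjusted p = 0.050).

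The other subunits did not pass the threshold. Eif3d had a log2 fold change of -0.28, near that of Eif3l, with an adjusted p of 0.11. Eif3a, the largest subunit, had 417, 397, 329 and 338 CPM in Dll1- cells and 326, 333, 285 and 356 CPM in Dll1+ cells, and Eif3c, which it binds, had 350.2, 341, 400.4 and 393 CPM in Dll1- cells and 318, 282, 359 and 396 CPM in Dll1+ cells. Both were lower in Dll1+ cells of mice 1, 2 and 3 and slightly higher in mouse 4, and neither passed the threshold (adjusted p = 0.20 and 0.23). Eif3e, Eif3f and Eif3k had log2 fold changes of -0.12, -0.17 and -0.09, and Eif3h had 0.02, with an adjusted p of 0.84. Eif3a, Eif3d, Eif3h, Eif3j1 and Eif3j2 were named after their values were seen. Of the 31-base stretches of Eif3j2, 94.9% occur in other genes, chiefly in Eif3j1, and of those of Eif3j1 41.3%, so the split of counts between them is uncertain.

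Among the 11 cap-binding and helicase factors, 3 fell and 0 rose, with a median of -0.16. Eif4g1, the large scaffold that joins eIF4E, eIF4A, eIF3 and the poly(A)-binding protein (chr16:20668313-20692884), had the lowest adjusted p of all members. Its values were 629, 567, 543 and 475 CPM in the Dll1- libraries and 438, 450.3, 398 and 386 CPM in the Dll1+ libraries. Every Dll1+ library lay below every Dll1- library (log2 fold change -0.40 with an SE of 0.072 and adjusted p = 0.022). Its paralog Eif4g3, named after its values were seen, had 336, 314, 233 and 257 CPM in Dll1- cells and 348, 343, 231 and 267 CPM in Dll1+ cells, a log2 fold change of 0.06 and an adjusted p of 0.56. The ratio of Eif4g1 to Eif4g3 in CPM per kb of transcript was 2.04, 1.97, 2.53 and 2.01 in Dll1- and 1.37, 1.43, 1.87 and 1.57 in Dll1+ cells, lower in the Dll1+ cells of each mouse.

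Eif4g2, a relative of eIF4G that lacks the eIF4E-binding part, had 1007, 867, 737 and 732 CPM in Dll1- cells and 906, 761, 750.2 and 759 CPM in Dll1+ cells. Its 4 differences were -0.15, -0.19, 0.03 and 0.05 on the log2 scale, below 0 in the PyMT-Dll1GFP mice and above 0 in the PyMT-Dll1mCh mice (log2 fold change -0.07 with an SE of 0.080 and adjusted p = 0.61 over the 4 mice).

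The cap-binding protein gene Eif4e itself did not pass the threshold, with 68.7, 61.0, 83.1 and 77.2 CPM in Dll1- cells and 53.3, 56.0, 66.0 and 78.5 CPM in Dll1+ cells (log2 fold change -0.20 with an SE of 0.080 and adjusted p = 0.15). It was lower in Dll1+ cells of mice 1, 2 and 3 and differed by 0.03 on the log2 scale in mouse 4. Eif4e2, a second cap-binding protein that can repress translation, fell, with 65.4, 64.0, 91.1 and 81.3 CPM in Dll1- cells and 51.2, 50.2, 72.8 and 76.5 CPM in Dll1+ cells (log2 fold change -0.28 with an SE of 0.065 and adjusted p = 0.042). Eif4e3, the lowest of the 3 cap-binding genes in CPM per kb, had 11.5, 9.25, 14.6 and 13.6 CPM in Dll1- cells and 12.0, 11.7, 13.5 and 8.89 CPM in Dll1+ cells. Its log2 differences were 0.07, 0.34, -0.12 and -0.61, upward in PyMT-Dll1GFP and downward in PyMT-Dll1mCh mice.

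Of the 3 DEAD-box helicase genes, 1 fell. Eif4a3, the RNA helicase of the exon junction complex, had 86.5, 90.8, 142 and 141 CPM in the Dll1- libraries and 74.3, 75.9, 116 and 127 CPM in the Dll1+ libraries. It was lower in Dll1+ cells of each mouse and of each reporter, without overlap inside a reporter (log2 fold change -0.23 with an SE of 0.052 and adjusted p = 0.040). Eif4a1, the main helicase of initiation, had 671, 698, 958 and 864 CPM in Dll1- cells and 610.4, 692, 758 and 903 CPM in Dll1+ cells, with a log2 fold change of -0.11 and an adjusted p of 0.46. Eif4a2, its paralog, had 512, 535, 259.8 and 243 CPM in Dll1- cells and 498, 496, 305 and 330.2 CPM in Dll1+ cells. It was slightly lower in Dll1+ cells of mice 1 and 2 and higher in mice 3 and 4, with log2 differences of -0.04, -0.11, 0.23 and 0.44 (adjusted p = 0.44 over the 4 mice). Eif4a1 was named after its values were seen, and 67.5% of its 31-base stretches occur in other genes, chiefly in the pseudogene Eif4a-ps4, to which 43.1% as many counts as to Eif4a1 were assigned.

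Of the 4 inhibitors and carriers of eIF4E, 1 fell and 0 rose, with a median of -0.19, and 3 were lower in Dll1+ cells in 4 of 4 mice. Eif4ebp1, the best known of the 4E-binding proteins (chr8:27260329-27276674), had 32.9, 35.4, 52.7 and 57.6 CPM in the Dll1- libraries and 21.8, 26.6, 41.4 and 52.6 CPM in the Dll1+ libraries. The Dll1+ library was the lower one in each mouse, with no overlap inside a reporter (log2 fold change -0.37 with an SE of 0.084 and adjusted p = 0.041). Eif4ebp2 had 299, 288, 225 and 212 CPM in Dll1- cells and 213, 225, 193 and 194 CPM in Dll1+ cells, lower in every mouse, and missed the threshold over the 4 mice (log2 fold change -0.30 with an SE of 0.077 and adjusted p = 0.053).

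Eif4ebp3, expressed at a few CPM, had 3.85, 2.11, 4.87 and 2.81 CPM in the Dll1- libraries and 4.57, 4.21, 5.39 and 5.88 CPM in the Dll1+ libraries. Each mouse had the higher value in Dll1+ cells, and the gene held the highest fitted value of the 62 members, but it did not pass the threshold (log2 fold change 0.60 with an SE of 0.21 and adjusted p = 0.12). Its transcript shares 66.4% of its 31-base stretches with other genes, so its counts are uncertain. Eif4enif1, which carries eIF4E into the nucleus, had 55.9, 53.7, 54.9 and 54.2 CPM in Dll1- and 50.4, 52.3, 52.1 and 53.1 CPM in Dll1+ cells, the narrowest spread of the 4.

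Of the 5 factors for subunit joining and eIF5A, 1 fell. Eif5a, which helps ribosomes through difficult peptide bonds and carries the amino acid hypusine (chr11:69916714-69921958), had 556, 561, 984 and 899.9 CPM in the Dll1- libraries and 413, 454, 683 and 757 CPM in the Dll1+ libraries. The Dll1+ libraries lay below the Dll1- libraries of the same reporter (log2 fold change -0.38 with an SE of 0.079 and adjusted p = 0.032). Eif5a2, its second gene, had 2.29, 2.25, 3.24 and 3.47 CPM in Dll1- cells and 1.85, 2.26, 3.57 and 2.91 CPM in Dll1+ cells, and the ratio of Eif5a to Eif5a2 in CPM per kb was 669 to 1062 over the 8 libraries. Eif5, the GTPase-activating factor of eIF2, had 283, 266, 173 and 195 CPM in Dll1- cells and 311, 314, 185 and 275 CPM in Dll1+ cells with the higher value in the Dll1+ library of each mouse, and did not pass the threshold (log2 fold change 0.24 with an SE of 0.084 and adjusted p = 0.11). Eif6, which keeps free large subunits from joining too early, differed little between the sorted populations, with log2 differences of -0.20, -0.00, -0.05 and -0.03.

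None of the 7 elongation factors passed the threshold over the 4 mice, although 7 of 7 had negative values, with a median log2 fold change of -0.20 and 4 at an unadjusted p under 0.05. Eef1a1, the carrier of aminoacyl-tRNA and the most abundant member, had 7249.9, 7309, 9748 and 9488 CPM in the Dll1- libraries and 5695, 6306, 8513 and 9302 CPM in the Dll1+ libraries. It was lower in Dll1+ cells of each mouse, with log2 differences of -0.35, -0.21, -0.20 and -0.03 (log2 fold change -0.20 with an SE of 0.10 and adjusted p = 0.23). Eef2, the translocase, had 3420.4, 3510.1, 4117 and 4077 CPM in Dll1- cells and 2619, 3010.5, 3718 and 4169.6 CPM in Dll1+ cells (log2 fold change -0.18 with an SE of 0.10 and adjusted p = 0.27), lower in mice 1, 2 and 3 and not in mouse 4. Per length, Eef1a1 stood at a mean of 4432 and Eef2 at 1159 CPM per kb of transcript. Of the 31-base stretches of Eef1a1, 72.3% occur in other genes, Gm13456 foremost.

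The exchange subunits Eef1b2, Eef1d and Eef1g, which recharge eEF1A, were at -0.29, -0.18 and -0.32 on the log2 scale, none past the threshold (adjusted p = 0.13, 0.15 and 0.073); they were named after their values were seen. Eefsec, the special elongation factor for selenocysteine, had 15.1, 13.8, 21.7 and 21.2 CPM in Dll1- cells and 12.7, 12.6, 17.3 and 15.3 CPM in Dll1+ cells. It was lower in Dll1+ cells in 4 of 4 mice, with its widest gap in mouse 4 (log2 fold change -0.30 with an SE of 0.084 and adjusted p = 0.069).

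Among the enzymes that modify elongation factors, 1 of 6 fell. Eef1akmt4, a lysine methyltransferase of eEF1A (chr16:20611593-20619011), had 9.14, 9.88, 15.4 and 13.4 CPM in the Dll1- libraries and 6.28, 7.90, 10.8 and 11.5 CPM in the Dll1+ libraries. Its Dll1+ library was the lower one in each mouse, and its adjusted p lay just under the threshold (log2 fold change -0.40 with an SE of 0.10 and adjusted p = 0.050). Of its 31-base stretches 43.8% occur in other genes, mostly in Gm49333, which is annotated over the same locus. Eef2k, the kinase that inactivates eEF2 and is itself inhibited by mTORC1 signaling, had 72.2, 66.5, 60.1 and 44.3 CPM in Dll1- cells and 59.9, 49.9, 59.7 and 39.0 CPM in Dll1+ cells, with log2 differences of -0.27, -0.41, -0.01 and -0.19, and did not pass the threshold (log2 fold change -0.22 with an SE of 0.077 and adjusted p = 0.11).

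**Figure D3:**
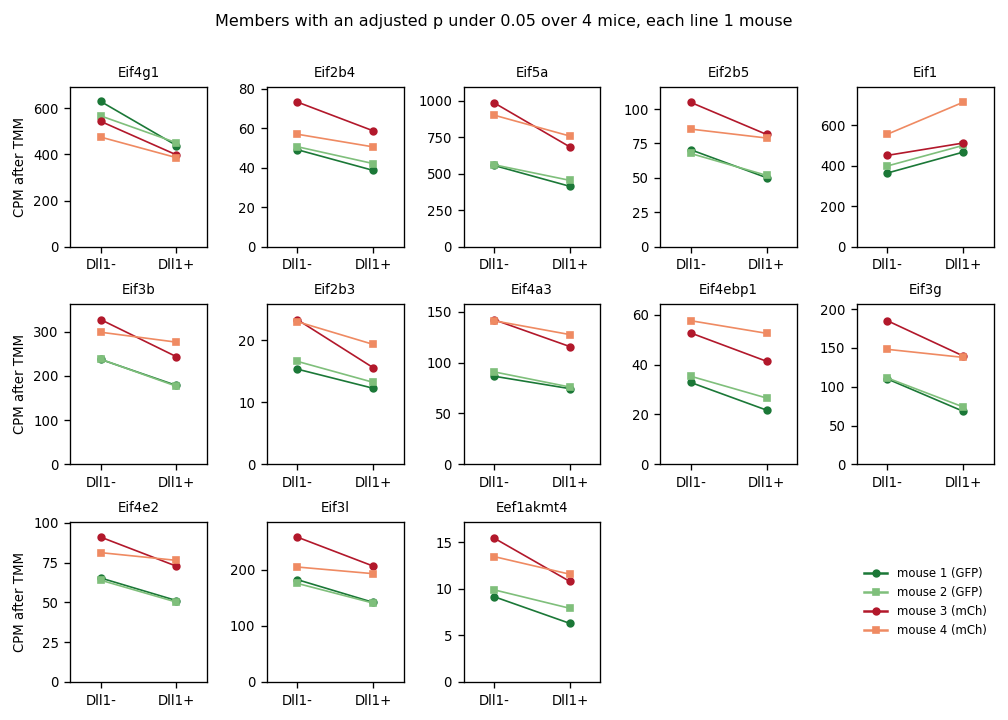
CPM after TMM scaling (y axis, from 0, a separate scale for each gene) in the Dll1- and Dll1+ library of each mouse (x axis) for the 13 members with an adjusted p under 0.05 over 4 mice; each line joins the pair of 1 mouse. Every line falls except those of Eif1, and for Eif4g1 all Dll1+ libraries lie under all Dll1- libraries.

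In the 2 PyMT-Dll1GFP mice the median log2 fold change of the members was -0.24, against -0.01 for all genes. An unadjusted p under 0.05 was found for 31 of the 62 members, beside 4900 of the 18322 genes tested. At an adjusted p under 0.05, 4.84% of all genes tested fell and 4.29% rose. Among genes averaging 10 CPM or more, 647 of 10247 fell. Of the 62 members 4 fell in Dll1+ cells, which is near these shares, and 0 rose. They were Eif3g (log2 fold change -0.64 with an SE of 0.097 and adjusted p = 0.015), Eif4ebp1 (log2 fold change -0.50 with an SE of 0.10 and adjusted p = 0.033), Eif2b5 (log2 fold change -0.44 with an SE of 0.090 and adjusted p = 0.034) and Eif4ebp2 (log2 fold change -0.42 with an SE of 0.086 and adjusted p = 0.034). For each of the 4, both Dll1+ libraries lay under both Dll1- libraries. This count was 0 when mouse 1 or mouse 2 was left out, 11 without mouse 3 and 10 without mouse 4. It was 13 by DESeq2 and 0 with no term for the mouse, where 2053 and 274 of all genes were called.

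In the 2 PyMT-Dll1mCh mice, 0 members were called, while 6.25% of all genes fell and 5.51% rose. By edgeR 17 of the 62 members had an unadjusted p under 0.05, beside 5539 of the 18322 genes tested. DESeq2's Wald test called 3 members, beside 2473 of all genes. The median of the members was -0.13, against 0.02 for all genes. Side by side, the 4 members called in PyMT-Dll1GFP mice had log2 fold changes of -0.26 for Eif3g, -0.24 for Eif4ebp1, -0.24 for Eif2b5 and -0.18 for Eif4ebp2 in PyMT-Dll1mCh mice. The values of mouse 3 were near those of mice 1 and 2 for several members, as for Eif3b, whereas mouse 4 was nearer 0.

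The Dll1+ effect of the members was not shown to differ between the reporters. The test of the difference called 0 members with edgeR and 0 with DESeq2. By edgeR 0.00546% of all genes tested were called with a lower and 0.0655% with a higher effect in PyMT-Dll1GFP mice. An unadjusted p under 0.05 was found for 4 of the 62 members, beside 2420 of the 18322 genes tested. For Eif4a2 the PyMT-Dll1GFP effect minus the PyMT-Dll1mCh effect was -0.41 ± 0.14 (SE, adjusted p = 0.29), and for Eif3g it was -0.38 ± 0.14 (adjusted p = 0.31). For Eif3e it was -0.34 ± 0.14 (adjusted p = 0.38).

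The reporter lines were compared in a fit with no term for the mouse, since each mouse has 1 reporter. In Dll1- cells, 26 members were higher and 4 lower in PyMT-Dll1mCh than in PyMT-Dll1GFP mice at an adjusted p under 0.05, beside 18.7% and 17.9% of all genes tested, with a median log2 fold change of 0.39 against 0.01 for all genes. In Dll1+ cells, 31 were higher and 2 lower, beside 15.2% and 15.4%, with a median of 0.42 against 0.07. All 4 PyMT-Dll1mCh libraries lay above all 4 PyMT-Dll1GFP libraries for 35 members, beside 21.5% of all genes, and below them for 3 members, Eif4a2, Eif4g2 and Eif4g3, beside 21.8%. With mouse 1 or mouse 2 left out, both comparisons called 0 members and 0 of all genes, and without mouse 3 or 4 they called 28 to 39 members.

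**Figure D4:**
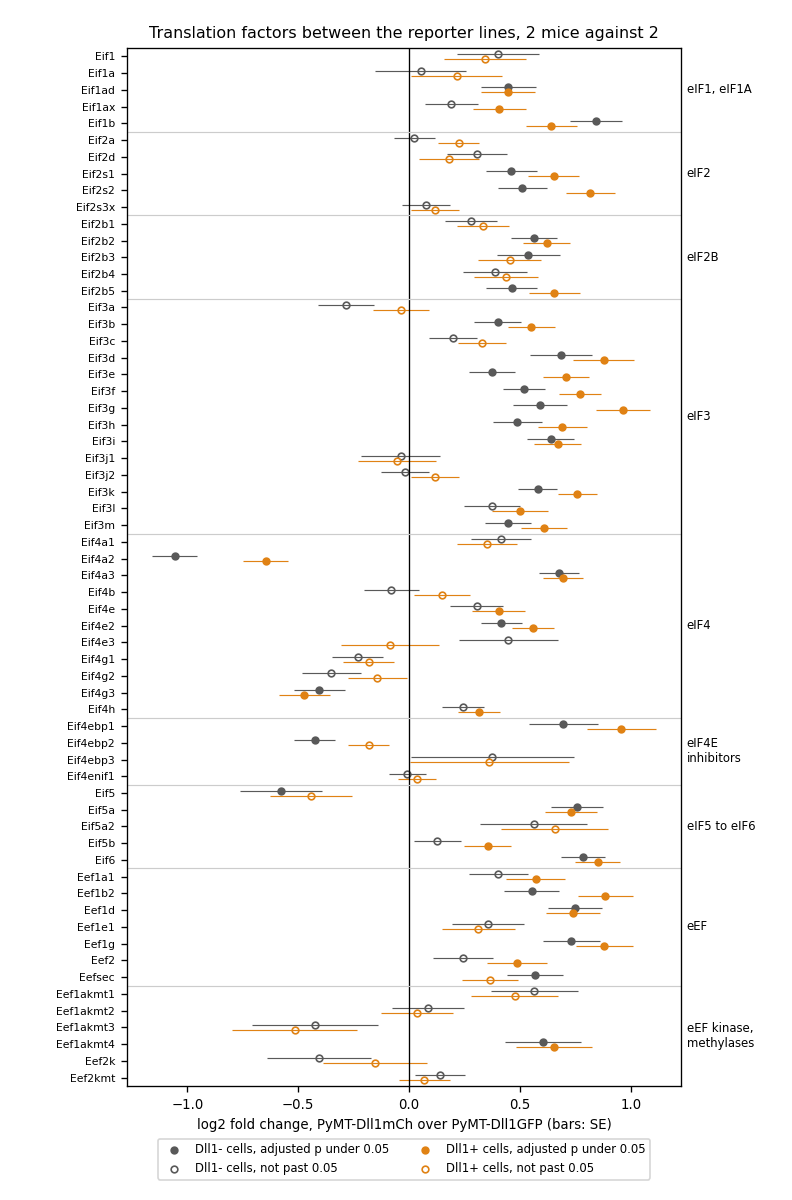
Fitted log2 fold change of PyMT-Dll1mCh over PyMT-Dll1GFP mice (x axis, bars are SE) for the 62 members (rows, grouped by role) in Dll1- (grey) and Dll1+ cells (orange), 2 mice against 2; filled points have an adjusted p under 0.05. Most points lie right of 0, and Eif4a2, Eif4g3 and Eif5, among others, lie left of it.

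In Dll1- cells Eif1b and Eif6 had the highest log2 fold changes of the 62 members. Eif6 had 71.1, 69.7, 126 and 117 CPM in the Dll1- and 61.7, 69.5, 122 and 114 CPM in the Dll1+ libraries, so all libraries of mice 3 and 4 lay above those of mice 1 and 2 (log2 fold change 0.78 ± 0.099, adjusted p = 0.003 in Dll1- cells, and 0.85 ± 0.099, adjusted p = 0.004 in Dll1+ cells). Eif1b, given above by library, was likewise separated, with 0.84 ± 0.12 in Dll1- and 0.64 ± 0.12 in Dll1+ cells. Eif4a3 and Eif5a, which both fell in Dll1+ cells, were higher in PyMT-Dll1mCh mice by 0.67 and 0.75 in Dll1- cells and by 0.69 and 0.73 in Dll1+ cells.

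Of the 14 eIF3 subunit genes, 9 were higher in the Dll1- and 10 in the Dll1+ cells of PyMT-Dll1mCh mice and 0 were lower. Eif3k ran from 109 to 126 CPM over the 4 PyMT-Dll1GFP and from 179 to 191 CPM over the 4 PyMT-Dll1mCh libraries, and Eif3f from 154 to 196 and from 259.5 to 283 CPM, without overlap. In Dll1+ cells the log2 fold changes with the highest values were 0.96 for Eif3g, 0.88 for Eif3d, 0.77 for Eif3f, 0.76 for Eif3k and 0.71 for Eif3e. Eif3a, Eif3j1 and Eif3j2 were the subunit genes with values near or under 0 in either cell population, from -0.29 to 0.12.

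In eIF2B, 3 of 5 subunit genes were higher in PyMT-Dll1mCh Dll1- cells and 2 in Dll1+ cells, with medians of 0.46 and 0.45, and 5 of 5 had positive values in both. Of the 7 elongation factors, 4 were higher in Dll1- and 5 in Dll1+ cells. Eef1a1 had log2 fold changes of 0.40 (adjusted p = 0.054) in Dll1- and 0.57 (adjusted p = 0.021) in Dll1+ cells, and Eef2 had 0.24 (adjusted p = 0.20) and 0.49 (adjusted p = 0.035). Eif2s2 was higher by 0.51 in Dll1- and 0.82 in Dll1+ cells, while Eif2s3x, the gamma subunit of the same complex, had 0.08 and 0.12 and did not pass the threshold.

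The members lower in PyMT-Dll1mCh mice were Eif4a2, Eif4g3, Eif4ebp2 and Eif5 in Dll1- cells and Eif4a2 and Eif4g3 in Dll1+ cells. Eif4a2 had 512, 535, 259.8 and 243 CPM in Dll1- and 498, 496, 305 and 330.2 CPM in Dll1+ libraries and was lower in all PyMT-Dll1mCh libraries (log2 fold change -1.06 with an SE of 0.10 and adjusted p = 0.001 in Dll1- cells, and log2 fold change -0.65 with an SE of 0.10 and adjusted p = 0.007 in Dll1+ cells). Eif4a1 had 0.41 ± 0.14 and 0.35 ± 0.14 and passed in neither. In CPM per kb, Eif4a1 stood at 1.53 to 1.74 times Eif4a2 in the 4 PyMT-Dll1GFP libraries and at 3.10 to 4.59 times in the 4 PyMT-Dll1mCh libraries. With the counts of the pseudogene Eif4a-ps4 added to Eif4a1, the ratio of plain CPM was 1.70 to 1.92 in PyMT-Dll1GFP and 3.43 to 5.32 in PyMT-Dll1mCh libraries, so the 2 lines stayed apart.

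Eif4ebp1 and Eif4ebp2, which bind the same target, went in opposite directions between the Dll1- cells of the lines. Eif4ebp1 was higher in PyMT-Dll1mCh mice (log2 fold change 0.69 with an SE of 0.16 and adjusted p = 0.014 in Dll1- cells, and log2 fold change 0.96 with an SE of 0.16 and adjusted p = 0.008 in Dll1+ cells). Eif4ebp2 was lower in Dll1- cells (log2 fold change -0.43 with an SE of 0.092 and adjusted p = 0.012), and in Dll1+ cells its value was -0.18 with an adjusted p of 0.17. Per kb, Eif4ebp2 stood at 2.81 to 3.38 times Eif4ebp1 in PyMT-Dll1GFP and at 1.27 to 1.61 times in PyMT-Dll1mCh libraries. Eif4g3 was lower in both cell populations of PyMT-Dll1mCh mice, with log2 fold changes of -0.40 and -0.47, and Eif5 in Dll1- cells, with -0.58 (adjusted p = 0.048). The 8 fibroblast and pericyte markers, 8 of 8 higher in PyMT-Dll1mCh Dll1- cells and 6 of 8 in Dll1+ cells, moved in the same comparisons, as did the 7 immune markers tested (7 and 4 higher), the 6 endothelial (6 and 1), the 5 erythroid (4 and 4) and the 4 nerve and Schwann markers (2 and 1). Their median log2 fold changes in Dll1- cells were 3.98, 2.03, 2.44, 3.85 and 1.74 in this order. Of the 4 basal epithelial markers, 1 was lower in Dll1- and 2 higher in Dll1+ cells. Proliferation genes moved too, 12 of 16 higher in Dll1- and 13 of 16 in Dll1+ cells. Their part in these values was not tested.

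**Figure D5:**
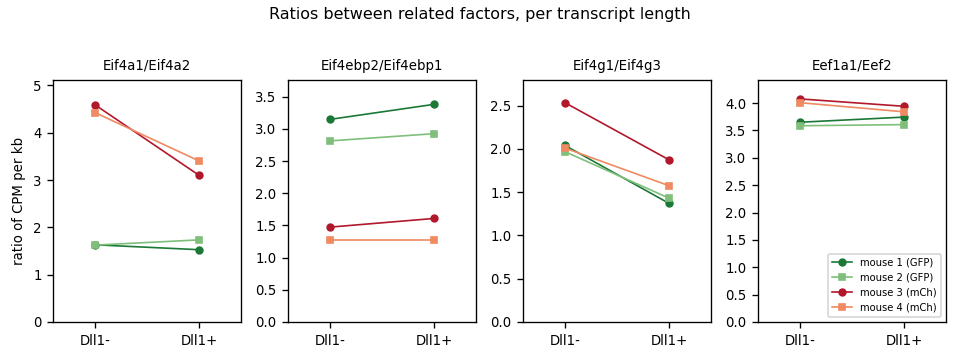
Ratio of CPM per kb of transcript between related factors (y axis, from 0) in the Dll1- and Dll1+ library of each mouse (x axis), with 1 line per mouse, green for PyMT-Dll1GFP and red for PyMT-Dll1mCh. Eif4a1 over Eif4a2 and Eif4ebp2 over Eif4ebp1 separate the lines, Eif4g1 over Eif4g3 drops in Dll1+ cells of every mouse, and Eef1a1 over Eef2 stays between 3.59 and 4.08.

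The genes around these factors were followed in 8 further lists. Over all genes tested, 7.04% fell and 6.98% rose in Dll1+ cells over the 4 mice. In a short list, 1 call is too few to set the list apart from these shares. Of 22 genes of cytosolic tRNA synthetases and their complex, which charge the tRNAs used in elongation, 11 fell in Dll1+ cells over the 4 mice and 0 rose, 18 were lower in 4 of 4 mice, and the median log2 fold change was -0.23. Gars (log2 fold change -0.56 with an SE of 0.065 and adjusted p = 0.008), Kars (log2 fold change -0.50 with an SE of 0.076 and adjusted p = 0.015) and Aars (log2 fold change -0.56 with an SE of 0.088 and adjusted p = 0.016) had the lowest p. In PyMT-Dll1GFP mice 5 fell and in PyMT-Dll1mCh mice 3. Between the lines, 7 were higher and 1 lower in PyMT-Dll1mCh Dll1- cells, and 8 higher and 0 lower in Dll1+ cells.

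Of 6 termination and recycling genes, 2 fell, the release factor gene Gspt1 (log2 fold change -0.37 with an SE of 0.070 and adjusted p = 0.027) and the recycling ATPase gene Abce1 (log2 fold change -0.37 with an SE of 0.077 and adjusted p = 0.033). Of 9 genes for hypusine and diphthamide, the modifications of eIF5A and eEF2, 1 fell, the hydroxylase gene Dohh that completes hypusine (log2 fold change -0.37 with an SE of 0.079 and adjusted p = 0.034), while Dhps, which starts it, had -0.02 and was named after its value was seen. Of 9 mitochondrial translation factor genes, 2 fell, Tufm (log2 fold change -0.33 with an SE of 0.061 and adjusted p = 0.024) and Gfm1 (log2 fold change -0.31 with an SE of 0.071 and adjusted p = 0.042), the mitochondrial counterparts of eEF1A and eEF2.

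Of 6 eIF2 kinase and phosphatase subunit genes, 1 rose, Ppp1r15a, the stress-induced subunit that brings the phosphatase to eIF2 (log2 fold change 0.25 with an SE of 0.061 and adjusted p = 0.046), and 0 fell. The kinase genes Eif2ak1 and Eif2ak3 both had -0.16 on the log2 scale and did not pass. Between the lines, 4 of these 6 genes were lower in PyMT-Dll1mCh Dll1- cells and 3 in Dll1+ cells, and 0 were higher. Of 10 mTORC1 and S6 kinase genes, 1 rose, Deptor, an inhibitor of mTOR, with a mean of 110.3 CPM in Dll1- and 232 CPM in Dll1+ cells (log2 fold change 0.999 with an SE of 0.11 and adjusted p = 0.008), and the other 9 did not pass, Mtor (-0.13) and Akt1s1 (-0.15) included. Of 16 cap-complex partners, 1 fell and 1 rose, close to the shares of all genes tested (7.04% and 6.98%). The helicase gene Dhx29 fell (log2 fold change -0.39 with an SE of 0.065 and adjusted p = 0.018). Mcts1, which helps recycled ribosomes start again, rose (log2 fold change 0.28 with an SE of 0.061 and adjusted p = 0.037), and its partner gene Denr had -0.24 with an adjusted p of 0.068.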

How the data were processed

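RNA was measured in 8 bulk libraries (stranded TruSeq) of sorted tumor cells from 4 mice. The authors mapped reads with salmon to GENCODE M20 transcripts (GRCm38.p6), combined transcripts by gene through tximport, and deposited unnormalized estimated counts, all of them whole numbers. Symbols and coordinates came from GENCODE M21 (GRCm38), which matched 53668 of 53697 rows, and starts from RefSeq.

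Counts were tested as deposited with edgeR 4.0.16 in R 4.3.3: TMM, filterByExpr, robust quasi-likelihood F test, Benjamini-Hochberg adjustment over 18322 genes, threshold 0.05. The fit over 4 mice held Dll1 status and the mouse, the design of the paper's methods, in which the mouse is a block because both libraries come from the same animal, as the labels give. Without the block, the 13 calls became 0. As a check of the pairing, the 2 libraries of each mouse were set against their group means, and these deviations correlated at -0.047 in PyMT-Dll1GFP and 0.55 in PyMT-Dll1mCh mice. A second fit gave each reporter its own effect and tested their difference. The reporter lines were compared in a fit of 4 groups, 2 mice against 2. Log2 values by library used a prior count of 2. Levels per kb used the longest principal transcript. Named members were those called, those with the lowest p in each comparison, the most abundant of each role and a fixed few. Others are marked, or are listed for their start sequence or among the flagged results. Members, lists and tests were chosen with earlier results of these data known. Scripts were tested on simulated data.

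Alternatives were DESeq2 1.42.0, other scalings and filters, limma-voom 3.58.1 with the mouse as a random term, fits without the block, each reporter alone and each mouse left out. Libraries held 27301396 to 123907626 counts. Reads are not independent molecules, so the floor of 3 counts covers counting error only.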

Additional observations from a re-analysis of the deposited data

Results flagged for a closer look

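Over all 62 members, Dixon's test set mouse 4 apart from the other 3 mice in 6, in each as the mouse with the highest log2 difference between Dll1+ and Dll1- cells. Of the members that fell, the value of mouse 4 was -0.113 for Eif3b, -0.0861 for Eif3l and -0.0889 for Eif4e2, while the other mice lay between -0.43 and -0.41, -0.36 and -0.32, and -0.35 and -0.32. Of members that did not pass the threshold, it was -0.0225 for Eif2s1, 0.184 for Eif3m and 0.108 for Eif5b, and the other mice lay between -0.44 and -0.38, -0.13 and -0.12, and -0.30 and -0.24. Chance flags about 1 in 20 groups of values in this way.

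For 4 of the 62 members, both mice of a reporter went one way and both mice of the other reporter the opposite way. The PyMT-Dll1GFP effect minus the PyMT-Dll1mCh effect was -0.41 for Eif4a2, 0.56 for Eif4e3, -0.21 for Eif4g2 and -0.21 for Eif3h on the log2 scale, and the test of the difference passed the threshold for none of these 4.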

How the results depend on the processing

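The 13 members called over 4 mice became 26 with DESeq2's Wald test and 20 with scaling by library total alone. They became 0 with no replicate block, 6 with the reporter in place of the mouse and 0 to 19 with each mouse left out. Of all genes tested, 2568 were called in the main fit, 4362 with DESeq2 and 2739 with library totals. The fit with no replicate block called 0 genes and that with the reporter 1352. The scaling by library total and the reporter term were chosen after seeing the data. Scaling by library total also turned the calls over all genes from 1279 higher and 1289 lower into 974 and 1765, and moved the median of all genes to -0.05. The median member log2 fold change stayed between -0.24 and -0.14 over the scalings and the left-out mice. In PyMT-Dll1GFP mice 4 calls became 7 with at least 10 counts in every library, 13 with DESeq2, with library totals, with no filter and with the reporter fitted alone, 0 with no replicate block, and 0 to 11 with a mouse left out. Of all genes, 1673 were called in PyMT-Dll1GFP mice in the main fit and 1972 with at least 10 counts in every library. DESeq2 called 2053 genes there, library totals 2057, no filter 3001, the reporter alone 2337 and no replicate block 274. In PyMT-Dll1mCh mice 0 calls became 3 with DESeq2, 2 with library totals and 4 with no filter. The calls over all genes there went from 2154 to 2473, 2243 and 3637. Between the lines, leaving out a mouse gave 0 to 39 calls in Dll1- and 0 to 38 in Dll1+ cells, against 30 and 33, and the mouse as a random replicate block in limma-voom gave 29 and 28. The cause of these changes was not tested; a fit with a mouse left out has 2 fewer libraries. Other alternatives kept every count within 1.5 times, and none turned the direction of the 13 members. The precision of values rests on 4 mice, and on 2 in each reporter.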
